A study of Homo sapiens with 16 samples.

Results

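H2023 is an established human line of non-small cell lung cancer, and the comparison described here is between 2 cultures of its cells that are labelled as a knockout of ZC3H12A. Of the 16 libraries of the series, 4 belong to it: 2 libraries of cells grown for 3 days in normal culture and 2 of cells grown for 7 days in stem-cell-enriched culture, called oncosphere culture in the labels. All 18227 genes that the deposited tables list were compared. Both cultures have the same label of genotype and the titles name 1 clone, g2-1, also written Clone2-2, so the comparison is of cultures. Culture type and days in culture change together and cannot be told apart. For comparison, 4 libraries of H2023 labelled wild type and 4 of A549, another lung cancer line, labelled as the same knockout were grown in the same pair of cultures. A549 also has 1 clone with this label.

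ZC3H12A encodes Regnase-1, an RNase that cuts stem-loops in the 3′ ends of inflammatory mRNAs, its own among them, and thereby limits their levels. Cells in sphere culture grow without attachment to a dish, in a medium that usually lacks serum, and such cultures are used to enrich cells that can form tumours. Growth on a dish gives cells spread actin fibres and adhesion plaques, and serum supplies lipoprotein cholesterol and mitogens, which many sphere media leave out. The media of this study are not described in the sources used here.

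The values are TPM, the usual unit of transcript level per transcript length, scaled to a fixed total in each library, so the depth of a library is unknown. The 2 replicates of a group correlated with r = 0.992 in normal culture and 0.987 in oncosphere culture on the log2(TPM + 1) scale. Nothing in the labels says that the replicates were separate cultures, so p-values measure the spread between libraries of a group, which may be technical. That spread was estimated over all 8 H2023 libraries, wild type included, so wild-type libraries that differ also widen the standard errors given here. Transcripts of the mitochondrial genome took 10.5% and 12.3% of all TPM in normal culture and 23.8% and 24.4% in oncosphere culture. The groups did not overlap, and an exact permutation test of 2 against 2 libraries cannot give a p under 0.33, the value found here. Since TPM are shares, this moves all other genes down: the median log2 difference over all genes was -0.12, against 0.02 when the mitochondrial genes were left out and the rest rescaled. The keratins KRT7, KRT8, KRT18 and KRT19 together held 12979 and 12291 TPM in normal culture and 7717 and 8239 TPM in oncosphere culture. Of the markers of other cell types, 5 fibroblast markers summed to between 3.51 and 6.6 TPM in the 4 libraries, and PECAM1 of endothelial cells stood between 0.29 and 1.04 TPM. The 4 immune markers measured summed to 40.4 and 34.4 TPM in normal culture and to 74.6 and 136 TPM in oncosphere culture, nearly all of it CD68, which epithelial cells also express. Of these 4, LYZ, the lysozyme gene, passed the test described below, from 0 and 0.13 to 0.99 and 3.85 TPM (limma, adjusted p = 0.026, and up to 0.127 without normal-culture replicate 1 or 2), and the part of these markers in the results was not tested. In bulk RNA, a change in the number of cells of a kind and a change in RNA per cell cannot be told apart.

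The targeted gene itself was detected in every library. ZC3H12A (ENSG00000163874, chr1:37474552-37484379, + strand, GRCh38 in GENCODE 29) stood at 41.5 and 41.5 TPM in normal culture and 94.6 and 69.2 TPM in oncosphere culture. Both oncosphere libraries were above both normal-culture libraries, and the log2 difference was 0.95 ± 0.17 (limma with Benjamini-Hochberg adjustment, adjusted p = 0.0101). The libraries labelled wild type held 26.8 and 29.9 TPM in normal culture and 32.5 and 26.4 TPM in oncosphere culture. Every library labelled knockout was thus above every wild-type library of its culture. An edit that spoils the protein need not lower the mRNA, and the mRNA level does not show whether the protein was lost, which was not tested. The difference in ZC3H12A between cultures lost its call without normal-culture replicate 1 or 2, with an adjusted p of up to 0.0631.

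Oncosphere culture differed from normal culture in 4895 of 18227 genes at an adjusted p under 0.05 (26.9%), with 1400 genes higher (7.68%) and 3495 lower (19.2%). In the text below, rose and fell are used of genes that passed this threshold in limma, fitted to all genes (7244 of them, 39.7%, had an unadjusted p under 0.05), and values are log2 differences of TPM + 1 with the standard error. The balance of directions depends on the mitochondrial share: after the libraries were centred on their medians, 2145 genes were higher (11.8%) and 2322 lower (12.7%), and with the mitochondrial genes left out 2018 were higher (11.1%) and 1966 lower (10.8%), or 24.5% and 21.9% of the genes tested in all. Leaving out 1 of the 4 libraries left between 2090 genes, without normal-culture replicate 1, and 3171 genes, without oncosphere replicate 1. The other counts were 2270 without normal-culture replicate 2 and 2736 without oncosphere replicate 2. Of 325 called genes of the lists and examples below, the call ended for 129 without normal-culture replicate 1, 125 without normal-culture replicate 2, 71 without oncosphere replicate 1 and 107 without oncosphere replicate 2, and the fit then assumes that the lone library varies like the other groups. Over all 18227 genes, 4146 had both oncosphere libraries above both normal-culture libraries (22.7%) and 7828 had both below (42.9%).

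The genes that rose most include secreted defence proteins, alcohol dehydrogenases and enzymes of sterol synthesis. LCN2, which encodes the iron-siderophore-binding protein lipocalin-2 (chr9:128149071-128153455, + strand), rose most, with 19.2 and 10.9 TPM in normal culture and 1281 and 2849 TPM in oncosphere culture. The genes named here were chosen among those whose cultures did not overlap. For LCN2 every oncosphere library exceeded every normal-culture library by more than an order of magnitude, and the difference was 6.95 ± 0.41 (limma, adjusted p = 0.000417). The mucin gene MUC5B, which codes for a gel-forming airway mucin, went from 0.16 and 0.14 to 97.6 and 56.6 TPM, and the alcohol dehydrogenase genes ADH1C and ADH6 went from 0 and 0.33 to 89.7 and 66.3 TPM and from 0.24 and 0 to 30.7 and 22.8 TPM. These 3 genes were close to absent in normal culture and well expressed in both oncosphere libraries. The complement inhibitor gene C4BPA rose from 0.39 and 0.45 to 52.8 and 42.6 TPM, the serum amyloid gene SAA2 from 3.92 and 2.15 to 102 and 99.7 TPM, and S100A9, a subunit of the antimicrobial complex calprotectin, from 4.71 and 7.71 to 255 and 242 TPM.

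Sterol synthesis supplied 3 of the 15 largest increases: TM7SF2, a sterol reductase, went from 6.87 and 5.69 to 297 and 228 TPM, HMGCS1 from 55.5 and 57.97 to 1049 and 1117 TPM and MSMO1 from 40.9 and 40.4 to 719 and 824 TPM. The 2 replicates of each culture lay close together for HMGCS1, whose difference was 4.23 ± 0.12 (limma, adjusted p = 0.000118). The remaining members of this group were TPPP3, a tubulin-binding protein of ciliated cells (5.65 ± 0.74), the tight-junction channel CLDN2 (5.01 ± 0.59), the aldolase ALDOC (4.42 ± 0.15), the retinoid-responsive gene RARRES1 (4.4 ± 0.47) and the cadherin CDH16 (4.27 ± 0.15). TPPP3 is the member with the widest spread, with 79.2 and 240.1 TPM in the oncosphere libraries, while CDH16 had 24.97 and 25.3 TPM.

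Among the 15 largest decreases were genes of adhesion, the cytoskeleton and growth signals. ANXA3, a phospholipid-binding annexin, fell from 22.1 and 21.2 to 0.2 and 0.19 TPM, a difference of -4.25 ± 0.38 (limma, adjusted p = 0.00112). CAV1, the main coat protein of caveolae (chr7:116524785-116561184, + strand), fell from 357 and 355 to 40.2 and 44.7 TPM, and the replicates of each culture were close (-3.04 ± 0.08, limma, adjusted p = 0.000118). The urokinase gene PLAU (chr10:73909177-73917497, + strand) fell from 153 and 181 to 19.5 and 26.6 TPM, the TWEAK receptor gene TNFRSF12A from 224 and 251 to 24.8 and 19.98 TPM, and the AP-1 subunit gene FOSL1 from 64.99 and 83.6 to 6.92 and 9.06 TPM. In all 5 genes both oncosphere libraries lay far below both normal-culture libraries, though the choice of the 15 genes required that the cultures did not overlap. The YAP target ANKRD1 fell from 15.7 and 18.3 to 0.68 and 0.65 TPM, the matrix glycoprotein gene EFEMP1 from 69.01 and 71.7 to 5.97 and 6.09 TPM, the keratin gene KRT80 from 29.9 and 27.6 to 0.52 and 1.34 TPM and the Hedgehog effector gene GLI2 from 16.6 and 14.5 to 0.72 and 1.3 TPM. The others were the thyroid hormone deiodinase DIO3 (-3.31 ± 0.37), the alpha-catenin relative CTNNAL1 (-3.0 ± 0.19), the kinase PLK2 (-2.91 ± 0.18), the matrix proteoglycan SPOCK1 (-2.84 ± 0.2), the mitotic activator CDC20 (-2.79 ± 0.09) and HNRNPA1P33 (-3.2 ± 0.18), a pseudogene whose reads may belong to its parent gene. None of the 15 genes in either direction lost its call under any setting tried, whether another scaling, a block for the replicate number or 1 library left out.

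**Figure D1:**
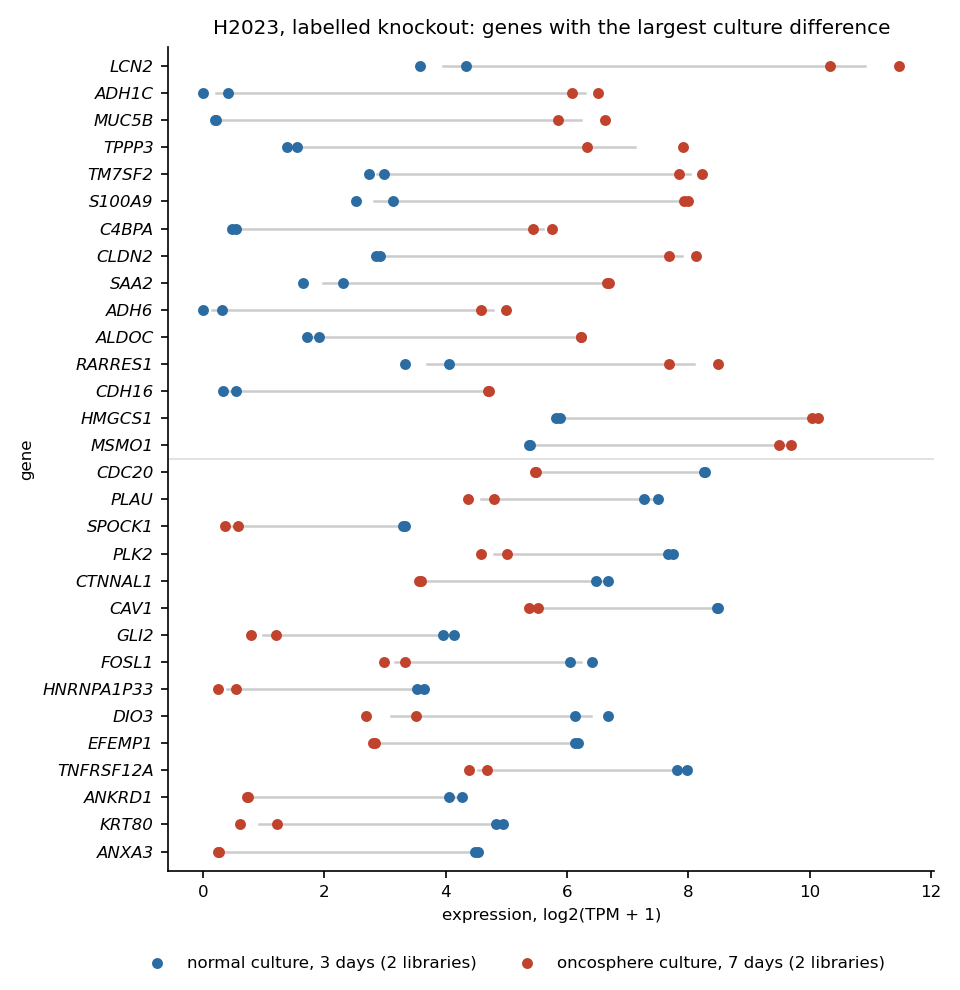
Level of the 15 genes that rose most and the 15 that fell most in H2023 labelled knockout, on the log2(TPM + 1) scale (x axis), with 1 point for each of the 4 libraries and 1 gene per line (y axis). The pairs of oncosphere points and of normal-culture points do not overlap in any of these genes, which were chosen for that, and the widest spread within a pair is that of TPPP3.

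The differences were next described by lists of genes with a shared role. A list is described by how many members passed the test and by its median, to be read against the 7.68% of all genes that were higher, the 19.2% that were lower and the all-gene median of -0.12. Members of cholesterol synthesis, complement and acute-phase genes lay mostly above 0, members of the cell-cycle and YAP lists mostly below, and the stem cell, epithelial and hypoxia lists spread to both sides.

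**Figure D2:**
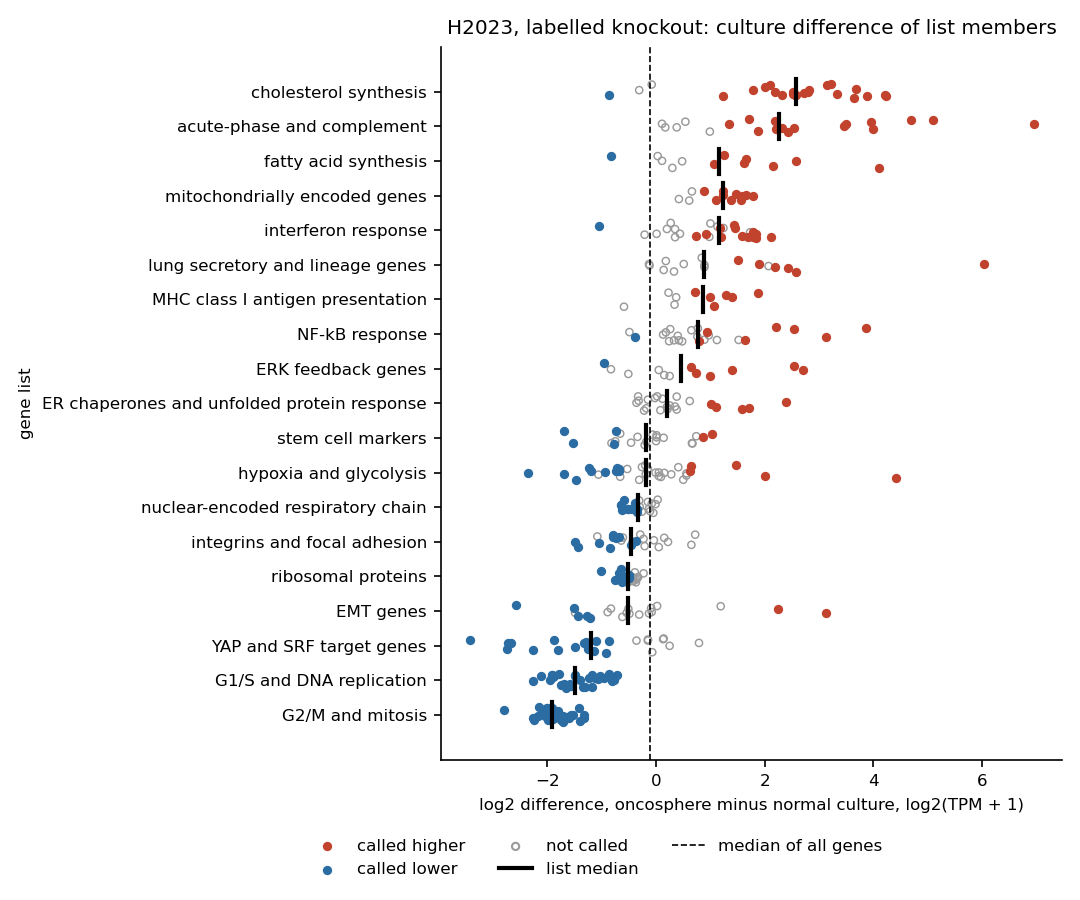
Log2 difference between oncosphere and normal culture (x axis, log2(TPM + 1)) of each measured member of 19 gene lists (y axis) in H2023 labelled knockout, with the list's median as a bar and the median of all genes, -0.12, as a dashed line. The cholesterol synthesis list has a median of 2.57 and the G2/M list one of -1.92, while the stem cell marker list has one of -0.18.

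Genes of cell division fell without exception on 2 lists. All 32 measured genes of G2 phase and mitosis were lower in oncosphere culture, with a median of -1.92, and the count stayed at 32 with any 1 library left out, with median centring, with quantile normalization and without the mitochondrial genes. CCNB1, the cyclin that drives entry into mitosis, fell from 251 and 271 to 60.3 and 68.5 TPM (-2.0 ± 0.1, limma, adjusted p = 0.000316). The mitotic kinase gene PLK1 fell from 194 and 215 to 42.9 and 41.7 TPM, and MKI67, the source of the Ki-67 proliferation antigen, from 91.9 and 92.4 to 16.5 and 21.2 TPM. CDC20, the anaphase activator, fell most on the list, from 303 and 309 to 43.6 and 43.3 TPM. In each of these 4 genes the oncosphere libraries kept about the same low level as each other, and no library of one culture reached the other. The smallest decrease on the list was that of ASPM, -1.32 ± 0.2.

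Of the genes of G1/S and DNA replication, 30 of 30 were lower and none higher, with a median of -1.5. With median centring 27 were lower, with the mitochondrial genes left out 26, and with 1 library left out 24 to 26. The replicative helicase genes MCM5 and MCM7 fell from 144 and 112 to 30.9 and 26.1 TPM and from 257 and 269 to 72.1 and 65.7 TPM. TYMS, which makes thymidylate for DNA, fell from 194 and 218 to 38.97 and 45.9 TPM (-2.26 ± 0.2, limma, adjusted p = 0.00116). CDK2 and CDK4, kinases of G1, fell by less, with -1.31 ± 0.13 and -0.78 ± 0.12. CDKN1A, which encodes the inhibitor p21, stood at 11.1 and 13.2 TPM in normal culture and 11.2 and 23.8 TPM in oncosphere culture, and its difference did not pass the test (limma, adjusted p = 0.689). Oncosphere replicate 2 was above both normal-culture libraries and replicate 1 lay among them.

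Many late cell-cycle promoters carry a cell cycle genes homology region, with the core letters TTTGAA, which the DREAM and MuvB complexes bind. RefSeq promoters (GRCh38.p14, 250 bases before to 50 after the start) were at hand for 26 of the 32 G2/M genes, and 19 of them (73.1%) held TTTGAA on either strand, against 4961 of 27305 promoters of all genes (18.2%). The sequences below are the 80 bases before the start of 6 genes that fell, 5′ to 3′ on the gene's strand, shown because all 6 carry the letters close to the start, with TTTGAA or its reverse complement TTCAAA in capitals. CDC20 lies at chr1:43358901-43358980 (+), PLK1 at chr16:23678809-23678888 (+), MKI67 at chr10:128126424-128126503 (-), ANLN at chr7:36389782-36389861 (+), KIF23 at chr15:69414269-69414348 (+) and BUB1B at chr15:40160989-40161068 (+).
CDC20: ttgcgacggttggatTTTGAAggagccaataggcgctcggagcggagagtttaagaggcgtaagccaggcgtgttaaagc
PLK1: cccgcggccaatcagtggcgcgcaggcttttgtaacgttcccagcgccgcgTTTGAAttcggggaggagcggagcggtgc
MKI67: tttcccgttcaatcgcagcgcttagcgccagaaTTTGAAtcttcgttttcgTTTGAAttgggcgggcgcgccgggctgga
ANLN: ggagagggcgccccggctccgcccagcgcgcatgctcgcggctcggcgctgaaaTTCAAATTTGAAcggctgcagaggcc
KIF23: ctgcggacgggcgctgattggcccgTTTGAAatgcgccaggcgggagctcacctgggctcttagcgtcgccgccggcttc
BUB1B: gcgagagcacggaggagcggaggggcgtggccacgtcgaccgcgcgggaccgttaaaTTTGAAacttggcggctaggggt
The core appears at 2 places in MKI67 and on both strands in ANLN. These 2 genes changed by -2.24 ± 0.13 and -2.06 ± 0.14, and KIF23 and BUB1B by -2.04 ± 0.14 and -1.93 ± 0.12. A match of letters is a description and not evidence of binding.

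Sterol synthesis moved the other way. Of 24 genes of cholesterol synthesis, uptake and its regulation, 21 rose and 1 fell, with a median of 2.57, and 21 were higher with any 1 library left out, with median centring, with quantile normalization and without the mitochondrial genes. In the mevalonate pathway, which builds the isoprenoid units, 6 of 8 rose. HMGCS1 (chr5:43289395-43313512, - strand), the synthase that feeds the pathway (4.23 ± 0.12, limma, adjusted p = 0.000118), was at 55.5 and 57.97 TPM in normal culture and 1049 and 1117 TPM in oncosphere culture. MVD, the decarboxylase, rose from 48.2 and 49.8 to 777 and 705 TPM. IDI1, the isomerase, and FDPS, a prenyl synthase, changed by 3.64 ± 0.19 and 2.19 ± 0.13. HMGCS1 and MVD were several-fold higher in each oncosphere library, with little spread between replicates. The exceptions were the kinase PMVK at 31.6 and 34.02 TPM in normal culture and 27.3 and 25.3 TPM in oncosphere culture and ACAT2, which was near 0 in all 4 libraries.

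Of the 11 enzymes from squalene to cholesterol, 10 rose. MSMO1, a methylsterol oxidase, rose from 40.9 and 40.4 to 719 and 824 TPM, SQLE, the epoxidase, by 3.33, LSS, the cyclase, by 3.22 and DHCR7, the last reductase, by 3.14. CYP51A1, a lanosterol demethylase, changed by 2.72 ± 0.15. EBP, the sterol isomerase, was lower, from 3.96 and 4.5 to 2.36 and 1.43 TPM, and this call ended with the mitochondrial genes left out and without 3 of the 4 libraries (limma, adjusted p = 0.0586 and up to 0.115). Of the genes of uptake and regulation 5 of 5 rose. INSIG1, which holds the SREBP complex in the endoplasmic reticulum, went from 19.1 and 22 to 242 and 313 TPM, and SREBF2, the transcription factor of the pathway, from 47.3 and 38.96 to 105 and 98.1 TPM. The groups did not overlap in either gene, and the differences were 3.68 ± 0.32 and 1.23 ± 0.19. The sterol carrier STARD4 changed by 2.32 ± 0.26. A sterol-regulatory letter string, TCACNCCAC, was in 1 of 17 available RefSeq promoters of this list (5.9%), that of SREBF2, against 379 of 27305 (1.4%), which says only that these letters are not in the other windows.

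Genes of fatty acid synthesis rose in part, 7 of 12 with 1 lower and a median of 1.16, and 5 to 7 were higher with 1 library left out. ACSS2, which makes acetyl-CoA from acetate, rose from 11.6 and 13.3 to 201 and 266 TPM (4.11 ± 0.27, limma, adjusted p = 0.000484). The desaturase genes FADS2 and FADS1 changed by 2.57 ± 0.33 and 1.66 ± 0.19 and ELOVL6, an elongase, by 1.62 ± 0.25. ACLY, which makes cytosolic acetyl-CoA from citrate, changed by 1.25 ± 0.15. ACACA, the acetyl-CoA carboxylase, changed by 0.11 ± 0.14 and did not pass the test (limma, adjusted p = 0.637). SREBF1, the fatty acid counterpart of SREBF2, was lower, from 105 and 77.6 to 55.2 and 45.9 TPM, a call that ended with the mitochondrial genes left out (limma, adjusted p = 0.0848) and without any 1 of the 4 libraries (up to 0.174).

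Of 6 targets of the liver X receptors, the sensors that drive cholesterol export, 3 fell and none rose. ABCA1, the cholesterol exporter, went from 2.04 and 1.36 to 0.06 and 0.1 TPM, and MYLIP, a ubiquitin ligase, from 1.6 and 2.04 to 0.15 and 0.24 TPM. Both were low in normal culture and at or under 0.24 TPM in oncosphere culture (limma, adjusted p = 0.011 and 0.00153). ABCG1 changed by -0.7 ± 0.15, and with 1 library left out 1 or 2 of the 3 calls remained. The ABCG1 call ended in all 4 cases and the ABCA1 call in 3, with an adjusted p of up to 0.0893 and 0.0725 in limma.

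**Figure D3:**
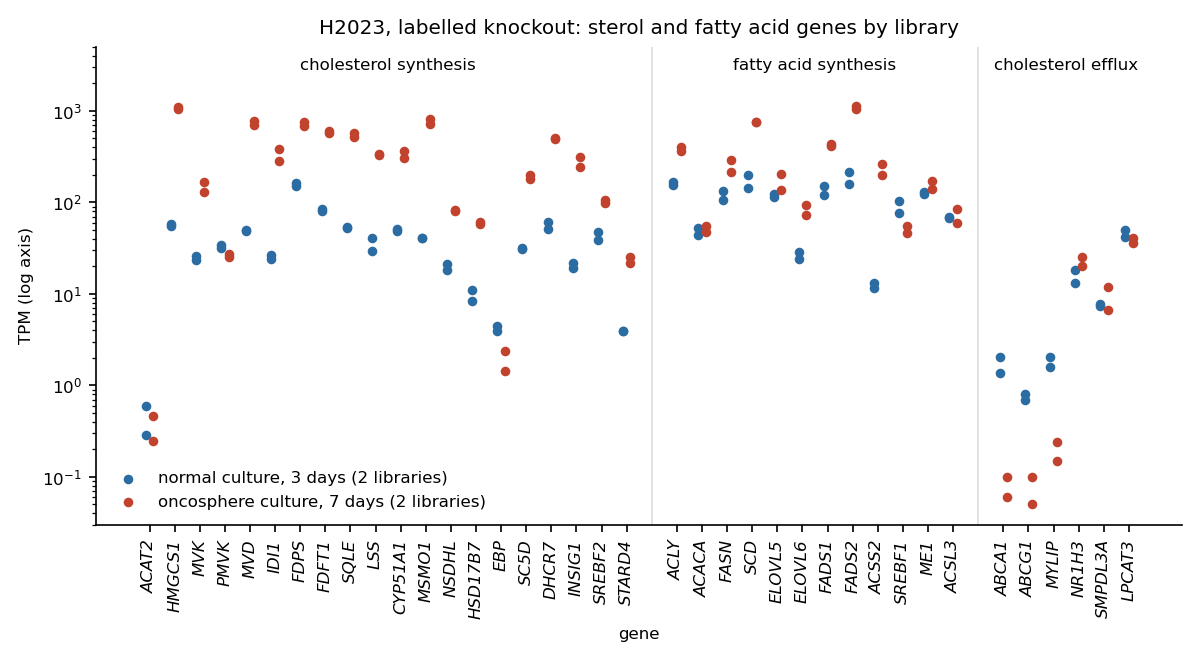
Level in TPM on a log axis (y) of genes of cholesterol synthesis and its regulation, fatty acid synthesis and cholesterol efflux (x), with 1 point for each of the 4 H2023 libraries labelled knockout. The oncosphere points stand above the normal-culture points for most synthesis genes, with HMGCS1 and MSMO1 farthest, and below them for ABCA1, ABCG1 and MYLIP.

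Targets of YAP and of the actin-sensing factor SRF fell. YAP with TEAD, and SRF with its actin-binding partner, drive genes of the cytoskeleton and adhesion when cells spread. Of 24 genes, 16 fell and none rose (median -1.2), and 14 to 16 were lower with 1 library left out. With median centring the transgelin gene TAGLN, at 4.88 and 2.95 TPM in normal culture and 8.84 and 6.07 TPM in oncosphere culture, passed as higher (limma, adjusted p = 0.0381, against 0.0919 without centring). Among the YAP targets 8 of 10 fell. CCN1, a secreted matrix protein, went from 70.9 and 74.7 to 11.9 and 9.39 TPM, AXL, a receptor kinase, from 156 and 139 to 22.7 and 20.01 TPM, and AMOTL2 and AJUBA, both junction scaffolds, changed by -2.74 ± 0.41 and -2.26 ± 0.2. In CCN1 and AXL both oncosphere libraries lay far below both normal-culture libraries.

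Of the 14 actin and SRF genes 8 fell. ACTB, beta-actin, went from 5341 and 4780.3 to 1748 and 1851 TPM, and TPM1, a tropomyosin, changed by -1.87 ± 0.13. ACTG1, TPM2, TPM4 and VCL, the adhesion protein vinculin, changed by -1.29 ± 0.16, -1.32 ± 0.2, -1.26 ± 0.19 and -0.87 ± 0.13. SRF itself did not pass the test, with -0.07 ± 0.18 (limma, adjusted p = 0.802). Of 12 integrin subunits 3 fell, and of 11 proteins of the adhesion plaque 7 fell. The main integrin beta chain, ITGB1, went from 1101 and 1031 to 625 and 602 TPM and ITGB5 changed by -0.84 ± 0.09. PXN, the plaque scaffold paxillin, changed by -1.43 ± 0.1 and PTK2, focal adhesion kinase, by -0.73 ± 0.1. Of the 10 calls in integrins and plaque proteins together, 6 stayed with median centring, 7 without the mitochondrial genes and 4 to 8 with 1 library left out, fewest without normal-culture replicate 1.

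Mesenchymal and epithelial genes did not move as blocs. On the list of epithelial-mesenchymal transition 2 of 20 rose and 5 fell. The genes that rose encode matrix proteins: FN1, fibronectin, went from 13.3 and 16.6 to 203 and 93.2 TPM and TNC, tenascin-C, from 6.7 and 8.95 to 36.6 and 44.7 TPM. LOXL2, a collagen cross-linking enzyme, fell from 59.2 and 50.2 to 9.22 and 7.45 TPM and CDH2, N-cadherin, changed by -1.22 ± 0.2. All oncosphere libraries were above normal culture in FN1 and TNC and below it in LOXL2, with differences of 3.13 ± 0.42, 2.24 ± 0.25 and -2.58 ± 0.16 (limma, adjusted p = 0.00375, 0.00206 and 0.000475). VIM, vimentin, went from 894 and 945 to 302 and 480.1 TPM and lost its call without the mitochondrial genes and without 3 of the 4 libraries (limma, adjusted p = 0.0649 and up to 0.125). With 1 library left out, 2 members stayed higher and 2 to 3 lower. The CDH2 call ended in 1 of those cases (adjusted p = 0.0556 in limma).

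Of 16 epithelial markers 3 rose and 5 fell. JUP, the junction protein plakoglobin, rose from 47.6 and 35.6 to 214 and 206 TPM and KRT19, a keratin of simple epithelia, from 126 and 130.5 to 505 and 798 TPM. KRT7, another such keratin, fell from 2355 and 2509 to 1213 and 1186 TPM, and the tight-junction scaffold TJP1 changed by -1.03 ± 0.13. Of the 4 keratins on the list, KRT19 alone rose (2.3 ± 0.25), while KRT7 (-1.02 ± 0.2), KRT8 and KRT18 fell. With 1 library left out KRT8 changed by -0.67 to -0.51 and KRT18 by -0.94 to -0.86. The KRT8 call ended with median centring, with the mitochondrial genes left out and in fits to the 4 libraries alone or to all 16. It also ended without any 1 of the 4 libraries, and the KRT18 call ended without normal-culture replicate 1. EPCAM stood at 15.6 and 11.8 TPM in normal culture and 28.4 and 19.3 TPM in oncosphere culture and CDH1, E-cadherin, at 37 and 22.8 TPM in normal culture and 21.3 and 13.9 TPM in oncosphere culture, and neither passed the test (limma, adjusted p = 0.132 and 0.218). The KRT7 call ended with quantile normalization and without any 1 of the 4 libraries (up to 0.0795), and the fallen markers numbered 1 to 2 with 1 library left out.

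Acute-phase proteins and complement rose together. These secreted proteins mark inflammation and, in airway epithelium, local defence. Of 20 genes 15 were higher and none lower, with a median of 2.26, and 13 to 14 were higher with 1 library left out. Of the 12 acute-phase genes 8 rose. SAA1, serum amyloid A, was at 10 and 8.84 TPM in normal culture and 149 and 175 TPM in oncosphere culture and CP, the copper ferroxidase ceruloplasmin, at 66.3 and 42.6 TPM in normal culture and 495 and 712 TPM in oncosphere culture. SERPINA1, which encodes the elastase inhibitor alpha-1-antitrypsin, changed by 2.32 ± 0.22 and TF, transferrin, by 2.2 ± 0.27. SERPINA3, another protease inhibitor of this class, did not pass the test, with 0.11 ± 0.09 (limma, adjusted p = 0.405). In SAA1 and CP each oncosphere library was several-fold above each normal-culture library (limma, adjusted p = 0.0023 and 0.00116).

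Of the 8 complement genes 7 rose, the exception being the decay factor CD55 (0.54 ± 0.18). C3, the component on which all routes of the cascade meet, went from 193 and 115 to 1032 and 739 TPM, and CFB, a protease of the alternative route, from 7.55 and 7.33 to 78.99 and 112 TPM. C1R and C1S, the first proteases of the classical route, changed by 2.43 ± 0.15 and 1.71 ± 0.15. An inhibitor rose as well: CFI, which cuts C3b, went from 3.36 and 2.76 to 67.5 and 59.4 TPM. No library of one culture overlapped the other in C3, CFB and CFI, and the differences were 2.54 ± 0.27, 3.5 ± 0.27 and 3.99 ± 0.19.

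On the list of NF-kB response genes 7 of 24 were higher and 1 lower (NFKB1), with 4 to 6 higher when 1 library was left out. The neutrophil chemokine genes rose: CXCL1 went from 29.9 and 33.4 to 261 and 305 TPM, CXCL8 from 2.37 and 2.71 to 32.1 and 79.4 TPM and CXCL5 from 474 and 404 to 1215 and 1528 TPM. All 3 were higher in each oncosphere library, and CXCL1 varied least between replicates (3.12 ± 0.11, limma, adjusted p = 0.000168). NFKBIZ, an atypical inhibitor that works with NF-kB on a subset of its targets, rose from 6.15 and 4.55 to 24.8 and 31.3 TPM, and the adhesion molecule gene ICAM1 from 44.8 and 36.4 to 198 and 288 TPM, though the latter call ended without normal-culture replicate 2 (limma, adjusted p = 0.051). The interleukin genes IL6, IL1A and IL1B and TNF did not pass the test, and IL6 stood at 0 and 0.16 TPM against 0.57 and 2.51 TPM. The change of NFKB1, -0.39 ± 0.11, lost its call with median centring (limma, adjusted p = 0.215) and without any 1 library (up to 0.174).

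Regnase-1 target mRNAs, those that its RNase is known to cut, overlap this list. Of 18 measured targets 6 were higher in oncosphere culture (CXCL1, CCL2, NFKBIZ, PTGS2, LCN2 and ZC3H12A itself) and 2 lower. PTGS2, the inducible cyclooxygenase, rose from 2.08 and 1.56 to 23.7 and 46.9 TPM, and both oncosphere libraries were above normal culture (3.62 ± 0.45, limma, adjusted p = 0.00289). TFRC, the transferrin receptor, was lower, from 282 and 232 to 149 and 169.8 TPM, as was the survival gene BCL2L1, with -0.87 ± 0.25. Both of these calls ended without the mitochondrial genes (limma, adjusted p = 0.0651 and 0.113) and without 2 or 3 of the 4 libraries (up to 0.0937 and 0.175). CCL2 was called at 0.93 ± 0.27 and lost the call without 3 of the 4 libraries (up to 0.179). All 4 libraries have the same label of genotype, so these counts compare cultures and not genotypes.

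**Figure D4:**
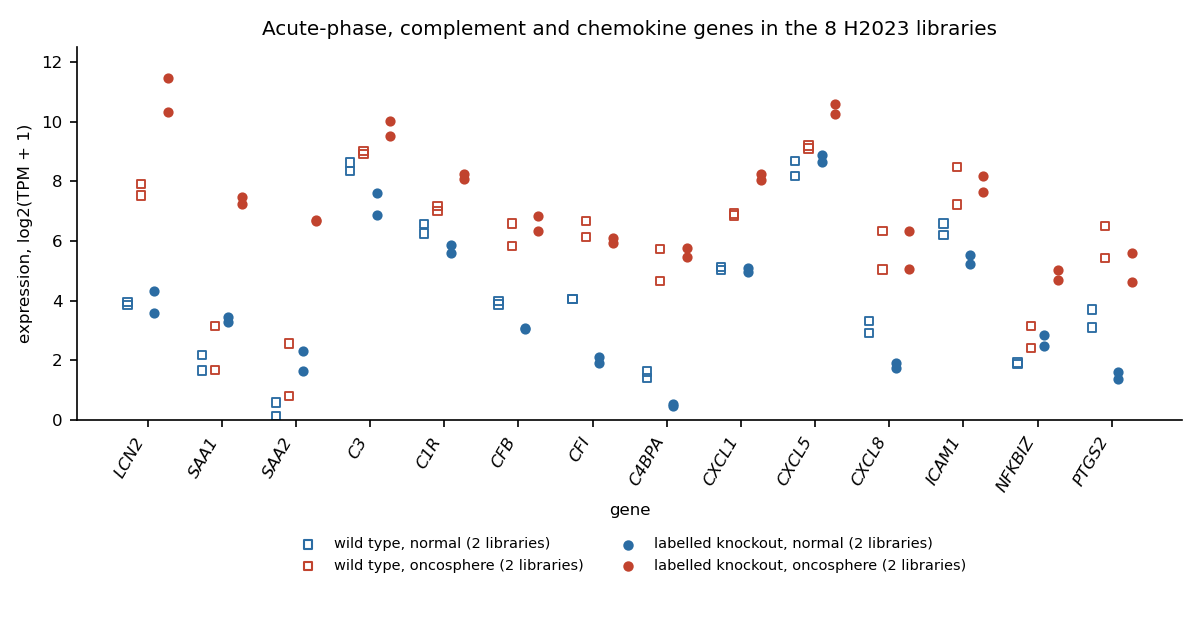
Level on the log2(TPM + 1) scale (y) of 14 acute-phase, complement, chemokine and related genes (x) in the 8 H2023 libraries, with 1 point per library and separate symbols for culture and label. In the libraries labelled knockout the oncosphere points are above the normal-culture points for all 14 genes, and for SAA1 and SAA2 the wild-type points of each culture lie below those labelled knockout.

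Genes of the interferon response were higher, but unevenly between the replicates. Of 26 genes 13 were called higher and 1 lower, with a median of 1.15. IFI6, an interferon-induced membrane protein, was at 17.8 and 18.5 TPM in normal culture and 49.4 and 91.9 TPM in oncosphere culture, OAS1, a sensor of double-stranded RNA, at 30.9 and 29.7 TPM in normal culture and 81.4 and 138 TPM in oncosphere culture, and IRF1, a transcription factor, at 13.4 and 17.2 TPM in normal culture and 37.3 and 49.01 TPM in oncosphere culture. Oncosphere replicate 2 was above replicate 1 in all 3 genes, though both were above normal culture. The count of higher genes fell to 2 without normal-culture replicate 1 or 2 and to 4 without oncosphere replicate 2, and it was 7 in a fit to the 4 libraries alone. OAS1 kept its call in every one of these cases, IFI6 lost it in 1 (limma, adjusted p = 0.0512) and IRF1 in all 4 (up to 0.115).

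Genes of class I antigen presentation were also higher in part, with 6 of 10 genes higher. HLA-C went from 381 and 385 to 729 and 813 TPM (1.0 ± 0.1) and kept its call with any 1 library left out. B2M, the common light chain, went from 779 and 866 to 1656 and 2812 TPM and HLA-B from 117 and 131 to 338 and 612 TPM, again with oncosphere replicate 2 highest. The B2M call ended without 3 of the 4 libraries (up to 0.0985) and that of HLA-B without 1 (0.0564, both limma). The transporter genes TAP1 and TAP2 did not pass the test (0.34 ± 0.26 and -0.59 ± 0.18). The 6 calls became 3 to 6 with 1 library left out.

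Airway secretory genes rose in part and no measured gene of the list fell. The list had 25 genes. Those not measured include NKX2-1, SCGB1A1, SCGB3A1, SCGB3A2 and the surfactant genes SFTPA1, SFTPB, SFTPC and SFTPD. Of 16 measured genes 6 were higher (median 0.89), 5 of 10 secreted proteins and 1 of 6 lineage factors. SLPI, the secretory leukocyte protease inhibitor, was at 109 and 93.2 TPM in normal culture and 544 and 396 TPM in oncosphere culture, and AGR2, a foldase needed for mucin, at 548 and 548 TPM in normal culture and 1742 and 2375 TPM in oncosphere culture. The factor that rose was SOX9, from 12.97 and 10.9 to 67.4 and 69.1 TPM (2.42 ± 0.23, limma, adjusted p = 0.00122). FOXA2, HNF4A and GATA6, factors of foregut lineages, changed by 0.18 ± 0.21, 0.33 ± 0.47 and 0.14 ± 0.23 and did not pass the test. BPIFB1, a secreted airway defence protein, was listed at 0 in both normal-culture libraries and at 3.4 and 7.03 TPM in oncosphere culture. TFF3, a trefoil peptide of mucous cells, went from 0.07 and 0 to 1.37 and 2.65 TPM, and MUC5AC, the other main airway mucin, changed by 2.07 ± 0.83 without passing (limma, adjusted p = 0.116).

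Markers used for cancer stem cells passed the test in both directions, at about the shares of all genes. Of 21 measured genes 2 were higher and 4 lower, where 7.68% of all genes were higher and 19.2% lower. The median was -0.18 beside -0.12 for all genes. The surface markers CD44 and CD24 were higher: CD44, the hyaluronan receptor, stood at 302 and 293 TPM in normal culture and 734 and 504 TPM in oncosphere culture, and CD24 at 734 and 527 TPM in normal culture and 1197 and 1065 TPM in oncosphere culture. In both, each oncosphere library exceeded each normal-culture library. The CD44 call ended without any 1 of the 4 libraries (limma, adjusted p up to 0.165) and the CD24 call without 2 of them (up to 0.0664). The pluripotency factor SOX2 was at or under 0.05 TPM in all 4 libraries, and POU5F1, which encodes OCT4, was at 10.2 and 10.3 TPM in normal culture and 7.97 and 4.65 TPM in oncosphere culture without passing the test (limma, adjusted p = 0.145). The polycomb gene BMI1 fell from 216 and 202 to 68.1 and 76.2 TPM and ALDH1A3, an aldehyde dehydrogenase, from 2.65 and 3.27 to 0.2 and 0.23 TPM. The BMI1 call ended without 3 of the 4 libraries (up to 0.064), while the ALDH1A3 call held in all 4 cases. ALDH1A1, the enzyme most used as a marker of such cells, stood at 2369 and 1988 TPM in normal culture and 1349 and 1118 TPM in oncosphere culture without passing the test, and MYC was called lower at -0.78 ± 0.21, a call lost with median centring (limma, adjusted p = 0.0588) and without any 1 library (up to 0.173).

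Glycolysis and hypoxia genes were split. Of 33 genes 5 were higher and 10 lower, where median centring gave 7 and 9 and leaving out the mitochondrial genes 7 and 5. Of 17 genes of glucose uptake and glycolysis 9 fell. PFKP, a phosphofructokinase, went from 133 and 132 to 22.7 and 27.9 TPM, SLC2A1, the glucose transporter GLUT1, from 72.1 and 73.5 to 27.2 and 33.4 TPM, and LDHA, which makes lactate, from 1913 and 1816 to 995 and 660.4 TPM. ALDOC, the aldolase named above, rose in the same pathway. Of 16 hypoxia-induced genes 4 were higher: EGLN3, the oxygen-sensing hydroxylase, went from 4.68 and 4.09 to 20.9 and 20.2 TPM and PFKFB4, a regulator of glycolytic flux, from 4 and 3.08 to 12.8 and 10.4 TPM. ADM, adrenomedullin, fell from 27.8 and 25.3 to 7.95 and 9.98 TPM. CA9 (0.49 and 0.26 against 1.04 and 0.35 TPM) and VEGFA (0.05 ± 0.17) did not pass the test. With 1 library left out 3 to 6 genes were higher and 4 to 8 lower, and the LDHA call ended without 3 of the 4 (up to 0.0864 in limma). The letters ACGTG, the core of the hypoxia response element, were in 20 of 30 available RefSeq promoters of this list (66.7%), on either strand. Of all 27305 promoters 6790 held them (24.9%). The list was made of genes known for hypoxia or glycolysis, so this share is not a result of these data. Matching letters are not evidence of binding.

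Respiratory chain genes differed by genome of origin. Of the 13 mitochondrially encoded subunits 10 rose (median 1.24), for example MT-CYB of complex III from 2922 and 2870.4 to 8809 and 9569 TPM and MT-ND6 of complex I by 1.78, with 4 higher after quantile normalization and 3 to 5 higher with 1 library left out. Of the 20 nuclear genes of the same complexes 10 fell and none rose (median -0.33). This count became 5 with median centring, 4 without the mitochondrial genes and 3 to 7 with 1 library left out. SDHB of complex II, CYC1 of complex III and ATP5MC1 of ATP synthase kept their calls in all of these cases, with -0.59 ± 0.08, -0.62 ± 0.08 and -0.64 ± 0.1. Of 25 ribosomal protein genes 11 were lower, which became 4 with median centring, 1 without the mitochondrial genes, and 0 to 9 with 1 library left out.

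The same change of culture in wild-type H2023 called 3901 genes (21.4%), 721 higher (3.96%) and 3180 lower (17.4%). Of the 1400 genes that rose in the libraries labelled knockout, 601 also rose in wild type, which is 42.9% of the former and 83.4% of the latter, and 1 fell. Of the 3495 that fell, 2432 fell in wild type too (69.6% and 76.5%), and none rose. Called or not, 1328 of the 1400 genes and 3456 of the 3495 had a wild-type difference of the same sign. The difference between the 2 culture responses, tested for all 18227 genes as an interaction in limma, was called for 0 genes, and 1294 had an unadjusted p under 0.05 (7.1%). Without oncosphere replicate 1 of the knockout label 2 genes were called and without wild-type oncosphere replicate 2 there was 1. Simulated data used the fitted spread, independent noise and changes only in genes above a low level. There 85 of 100 differences of 2 on the log2 scale were found, against 29 of 100 differences of 1. These rates need not hold in the real data, where SAA1, with a difference of 3.47 ± 0.65, was not called. A call missed by the interaction does not show that the responses were equal. Cholesterol synthesis had 21 genes higher in each (medians 2.57 and 2.58), and G2/M 32 lower in each (medians -1.92 and -1.38).

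Although no single gene was called, members of several lists had differences of one sign. The difference of the culture responses, knockout label minus wild type, was below 0 in all 32 G2/M genes, 27 of 30 G1/S genes, all 20 nuclear respiratory genes and 22 of 25 ribosomal protein genes, against 41.7% of all genes. It was above 0 in 18 of 19 TGF-beta and BMP targets (median 0.66), 11 of 12 ERK feedback genes (0.35), 21 of 24 NF-kB genes (0.49), 17 of 20 acute-phase and complement genes (1.27), 15 of 18 Regnase-1 targets (0.58), 15 of 18 nuclear receptor targets (0.59) and 18 of 22 endoplasmic reticulum chaperone and stress genes (0.20), against 57.9% of all genes and an all-gene median of 0.06. Other lists, such as Notch, airway secretory and class I genes, had shares close to these. Genes of a list share their libraries, so these are counts and no test. The knockout label of H2023 is 1 clone, so genotype and clone cannot be told apart in any difference from wild type. SAA1 had the largest positive difference by the naming rule, 3.47 ± 0.65 (limma, adjusted p = 0.546), with 2.16 and 3.5 TPM in wild-type normal culture and 2.18 and 7.88 TPM in wild-type oncosphere culture. For SAA2 and LCN2 it was 3.37 ± 0.78 and 3.13 ± 0.58. LCN2 also rose in wild type, to 183 and 239.9 TPM, below both oncosphere libraries labelled knockout. CD74, the invariant chain of class II antigen presentation, went from 0.18 and 0.37 to 8.78 and 16.1 TPM under the knockout label and from 0.99 and 2.73 to 1.77 and 2.75 TPM in wild type. VSIG10L, an immunoglobulin-domain membrane protein, also had a large positive difference (3.17 ± 0.95).

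For MUC5B and PI3 the difference lay in normal culture. MUC5B stood at 97.6 and 56.6 TPM in oncosphere culture under the knockout label and at 100.04 and 49.6 TPM in wild type, which overlap, while normal culture held 0.16 and 0.14 TPM under the knockout label and 5.86 and 7.76 TPM in wild type (difference 2.83 ± 0.54). PI3, the elastase inhibitor elafin, stood at 47.7 and 32.3 TPM in oncosphere culture under the knockout label and at 27.02 and 48.9 TPM in wild type, which overlap too, while normal culture held 2.23 and 1.58 TPM under the knockout label and 10.1 and 42.1 TPM in wild type (3.03 ± 0.89). The keratin gene KRT4 fell in wild type from 12.2 and 13.7 to 0.26 and 0.42 TPM, where the libraries labelled knockout had 2.81 and 1.77 TPM in normal and 0.7 and 3.28 TPM in oncosphere culture (3.11 ± 0.6). On the negative side, ALB, albumin, reached 336 and 269 TPM in wild-type oncosphere culture and 18.7 and 2.38 TPM under the knockout label (-3.74 ± 1.09, limma, adjusted p = 0.623). SPOCK1 fell from a higher level under the knockout label, 8.82 and 9.05 TPM against 0.97 and 1.01 TPM in wild type (-2.13 ± 0.29). ITGBL1, an integrin-like secreted protein, also started higher, with 13.99 and 12.7 against 5.16 and 5.76 TPM (-1.9 ± 0.21). In oncosphere culture the order of ITGBL1 was reversed, with 2.0 and 2.02 TPM under the knockout label against 4.08 and 4.04 TPM in wild type. The remaining ones were H2AC18, a histone gene with a near-identical copy, the pseudogenes RPL21P75 and ZBTB45P1, and RMRP, a small RNA gene, with -3.06 ± 2.6, -3.29 ± 1.66, -2.39 ± 1.11 and -1.85 ± 1.46, whose counting is uncertain. The RMRP difference rests on wild-type oncosphere replicate 1, and was 0 without it.

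In A549 labelled as the same knockout, the change of culture called 4061 genes (22.3%), 2103 higher (11.5%) and 1958 lower (10.7%). Of the 1400 genes that rose in H2023, 690 also rose in A549 (49.3% of the H2023 genes and 32.8% of the A549 genes) and 11 fell, and of the 3495 that fell, 1352 also fell (38.7% and 69.1%) and 79 rose. Called or not, 1250 of the 1400 genes and 2969 of the 3495 had an A549 difference of the same sign. The difference between the lines was called for 1292 of 18227 genes (7.09%), with 315 more positive in H2023 (1.73%) and 977 more negative (5.36%). Without 1 library between 292 and 1158 were called. The negative calls numbered 575 with median centring and 540 without the mitochondrial genes. The mean mitochondrial share was 16.03% in normal and 19.9% in oncosphere culture of A549. The 4 H2023 libraries and the 4 of A549 share no controls.

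Cholesterol synthesis was higher in oncosphere culture in both lines and more so in H2023, where 17 of 24 genes had a larger difference by this interaction (medians 2.57 and 1.19). ALDOC rose in H2023 and was at 5.16 and 8.15 TPM in normal and 7.93 and 2.16 TPM in oncosphere culture of A549 (difference of lines 4.91 ± 0.61, limma, adjusted p = 0.0064). PRDM16, a zinc-finger transcription factor, went from 0.1 and 0.03 to 9.68 and 8.78 TPM in H2023 and stayed at or under 0.37 TPM in A549 (3.48 ± 0.19, limma, adjusted p = 0.000985). AP1M2, the epithelial clathrin adaptor subunit, rose from 56.96 and 39.3 to 261 and 285 TPM in H2023 and went from 22.5 and 15.1 to 7.44 and 6.64 TPM in A549. The lines also parted on PLAU, which fell in H2023 and went from 72.5 and 47.2 to 108 and 135 TPM in A549 (-3.85 ± 0.32, limma, adjusted p = 0.00202). SERPINA3 stood at 0.09 and 0 TPM and 0.12 and 0.13 TPM in the H2023 cultures and went from 1.55 and 1.11 to 81.9 and 153 TPM in A549, and DMBT1, a secreted scavenger receptor, from 1.94 and 2.22 to 409 and 341 TPM. Nuclear respiratory chain genes fell in H2023 labelled knockout (10 of 20) and rose in A549 (9 of 20), and 8 of them differed between the lines before any centring. In wild-type H2023 0 of the 20 were called in either direction, with a median of -0.03. Without the mitochondrial genes 4 of the 20 were lower in H2023 labelled knockout. On hypoxia and glycolysis A549 had 0 genes higher and 19 lower, where H2023 had 5 and 10.

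**Figure D5:**
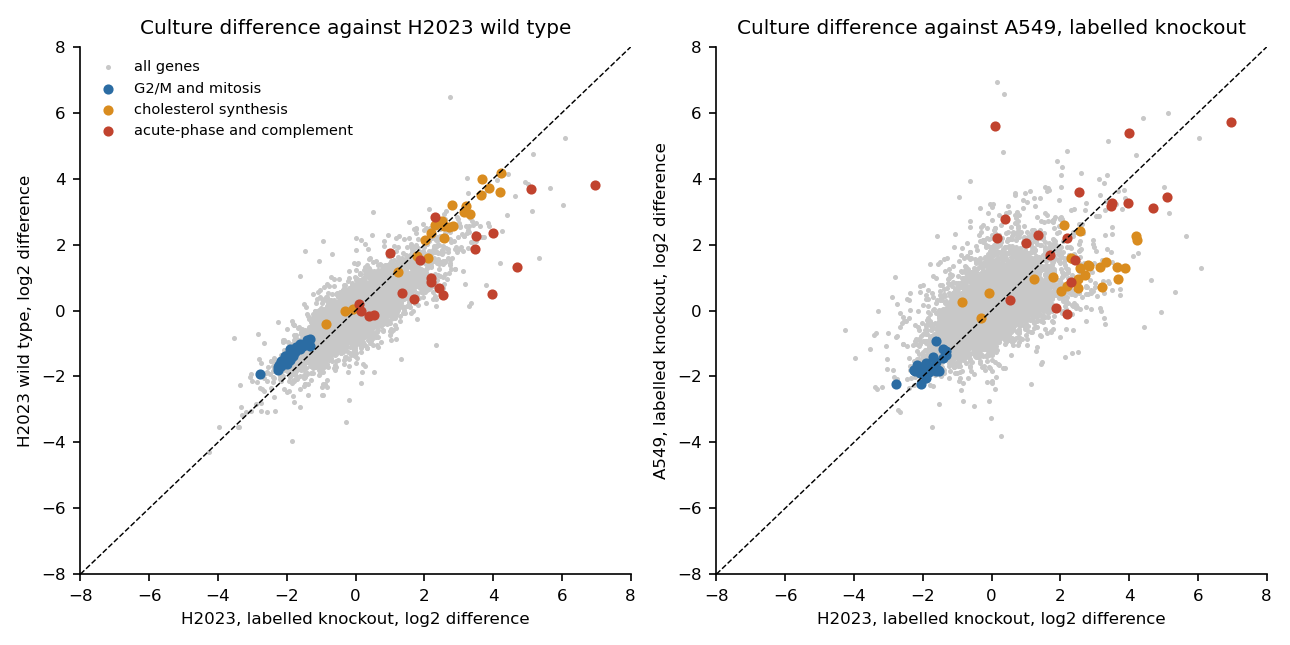
Log2 difference between oncosphere and normal culture of each gene in H2023 labelled knockout (x axis) against that in H2023 wild type (left panel, y axis) and in A549 labelled knockout (right panel, y axis), with G2/M, cholesterol synthesis and acute-phase genes coloured and the dashed line marking equal differences. Across genes of at least 1 TPM on average the correlation was 0.85 over 14524 genes with wild type and 0.618 over 14693 genes with A549, where genes are not independent replicates, and all 32 G2/M genes had the more negative difference under the knockout label than in wild type.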

How the data were processed

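RNA sequencing of H2023 and A549 cells gave 16 libraries in 8 groups of 2. Libraries were prepared from 1 µg of total RNA with a stranded TruSeq mRNA kit, per the labels' protocols. HISAT2, StringTie and GRCh38 are named in the submitters' processing notes, with no version. The TPM values were made by the authors and deposited in 1 table for each line and culture, so a difference between tables cannot be told apart from one between cultures. Each table has 18361 rows, and 119 gene identifiers that fill several rows with identical values were used once, leaving 18227 genes. The TPM summed to between 991838 and 993453 in the 4 libraries, and sequencing depth is unknown. The authors' counts-based results for knockout against wild type in the deposited tables were not used here.

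From the deposited TPM, log2(TPM + 1) was computed, which understates the change of low genes, and no gene was filtered out. limma 3.58.1 in R 4.3.3, with a mean-variance trend and 2-sided tests, was fitted to the 8 H2023 libraries as 4 groups, giving the culture difference under the knockout label and its difference from wild type, and to the 8 libraries labelled knockout for the difference between lines. P-values were adjusted over all genes by the Benjamini-Hochberg method with a threshold of 0.05. In data simulated for the 18227 genes, the culture comparison found 52 of 100 genes changed by 1 on the log2 scale and 95 of 100 changed by 2, with 8 false calls. The simulation used independent noise and changed only genes above a low level, so these rates need not hold in the real data. Symbols and positions came from the tables and GENCODE 29, which matched 17996 genes, and promoters from RefSeq.

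The genes named were ZC3H12A, the 15 largest called differences in each direction with a symbol, a mean of at least 5 TPM and no overlap between cultures, 8 in each direction for each difference of responses by the same rule, and in each list the 5 largest members of at least 1 TPM and further members whose role is described. The lists and the comparison were chosen with earlier results of these data known. Alternatives were a pseudocount of 0.1, a mean of at least 1 TPM, median centring, quantile normalization, leaving out the mitochondrial genes, a replicate block, no trend, other sets of libraries, and each library left out. The replicate numbers were checked and not treated as pairs, as each group has only 2. A few genes of the lists and of this rule are not reported here.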

Additional observations from a re-analysis of the deposited data

Results flagged for a closer look

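The culture response of the libraries labelled knockout differed between H2023 and A549 in 1292 genes by the interaction test in limma, and the genes with the largest differences, 8 in each direction by the naming rule, are given here as the H2023 log2 difference minus that of A549. On the positive side, UBD, a ubiquitin-like modifier induced by cytokines, differed by 4.97 (limma, adjusted p = 0.0403), with 11.3 and 101 TPM in H2023 oncosphere culture and 0.07 and 0.18 TPM in that of A549. The 2 H2023 oncosphere libraries were far apart in this gene. ALDOC differed by 4.91, ADH1C by 4.8 and ADH6 by 3.7. CA9, a carbonic anhydrase induced by hypoxia, differed by 4.08, with a decrease in A549, from 29.6 and 57.5 to 3.49 and 1.03 TPM. AP1M2 differed by 3.78, VSIG10L by 3.73 and PRDM16 by 3.48, the last with an adjusted p of 0.000985 in limma.

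On the negative side DMBT1 differed by -6.78 (limma, adjusted p = 0.000176) and stayed between 0.03 and 0.32 TPM in H2023. NTS, the neuropeptide neurotensin, differed by -6.21 with an adjusted p of 0.0448, from 0.32 and 0.78 to 552 and 37.1 TPM in A549 and 0.43 and 0.45 to 1.47 and 0.37 TPM in H2023. SERPINA3 differed by -5.5, the antimicrobial peptide gene DEFB1 by -4.56, the secretogranin gene SCG2 by -4.46 and the tetraspan membrane protein gene TM4SF4 by -4.38. PLAU differed by -3.85 and ANXA3 by -3.66. In PLAU and ANXA3 the H2023 libraries moved down, and in the other 6 the A549 libraries moved up while H2023 stayed at or under 3.64 TPM.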

How the results depend on the processing

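The 4895 calls of the culture difference became 2090 to 3171 with 1 library left out, the 1400 higher calls 568 to 985 and the 3495 lower calls 1455 to 2186. With median centring 2145 were higher and 2322 lower, with quantile normalization 2317 were lower, and with the mitochondrial genes left out 1966 were lower. Of the 1400 higher genes 1400 stayed called with centring, 1344 with quantile normalization and 1388 without the mitochondrial genes, and of the 3495 lower genes 2321, 2313 and 1966 did. The labels do not say whether libraries of the same replicate number were handled together. Their deviations from the group means correlated with r = 0.139 between the 2 cultures labelled knockout, 0.473 between the oncosphere cultures of both labels and 0.163 between the wild-type cultures, and with r between 0.009 and 0.03 for the other 3 pairs of groups, and with 2 libraries a group the numbers were not taken as pairs. The replicate block called 5401 genes (1617 higher, 3784 lower) and kept 1355 and 3368 of the calls. The block is 1 shift shared by all 4 groups of a fit, so it cannot remove a shift of the oncosphere libraries alone. The difference from wild type had 0 calls, also under the replicate block, and 0 to 2 with 1 library left out. The difference from A549 had 1292 calls, 1096 with the replicate block, and 292 to 1158 with 1 library left out (83 to 362 positive, 194 to 796 negative). Its 977 negative calls became 575 with centring, 511 with quantile normalization and 540 without the mitochondrial genes. The difference in mitochondrial share, 12.7 percentage points, was 11.7 to 13.6 with 1 library left out. Of 325 called genes of the lists and examples, 183 stayed called under every alternative and with any 1 library left out. The difference of RMRP from wild type became 0 without wild-type oncosphere replicate 1 and -3.7 without replicate 2, and that of MT-ND4L between cultures -0.03 with quantile normalization. The causes were not tested, and TPM do not show what depth limits.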

Other observations

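Stress and secretory pathways of the endoplasmic reticulum changed at a few genes. Of 22 chaperones and unfolded protein response genes 5 were higher in oncosphere culture and none lower, against 7.68% of all genes higher, with 2 to 5 higher when 1 library was left out. XBP1, the transcription factor of secretory cells, was at 56.6 and 43.9 TPM in normal culture and 292 and 242 TPM in oncosphere culture, and the co-chaperone gene DNAJB9 changed by 1.71 ± 0.18. XBP1 was higher in both oncosphere libraries (limma, adjusted p = 0.000541), while HSPA5, the main chaperone BiP, changed by 0.08 ± 0.19 and did not pass the test. On the list of ATF4 stress and amino acid supply 2 of 22 were higher and 6 lower, the latter 1 to 3 with 1 library left out. TRIB3, a pseudokinase, rose from 49.6 and 39.7 to 179 and 164 TPM, and SLC7A1, an arginine transporter, changed by -1.16 ± 0.16.

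Among NRF2 targets 5 of 18 were higher and 1 lower, with 2 to 5 higher when 1 library was left out. GPX2, a glutathione peroxidase of epithelia, rose from 51.8 and 46.5 to 745 and 1117 TPM (4.19 ± 0.19, limma, adjusted p = 0.000268) and the reductase gene AKR1B10 from 1108 and 1287 to 3997 and 4759 TPM. NQO1 and TXNRD1, which respond to the same factor, did not pass the test (0.55 ± 0.25 and -0.07 ± 0.1). Of 18 p53 targets 3 were higher and 2 lower, where TP53INP1 rose from 1 and 0.96 to 8.39 and 8.11 TPM and the death gene BAX fell by 0.67. With median centring 7 were higher and 1 lower. None of 4 metallothionein-list genes passed the adjusted test in limma.

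Feedback genes of the ERK pathway were higher in 6 of 12 cases and lower in 1, with 3 to 5 higher when 1 library was left out. DUSP6, the ERK phosphatase, rose from 4.98 and 5.81 to 40.5 and 41.04 TPM, SPRY1, a receptor kinase inhibitor, from 2.38 and 3.08 to 24.5 and 17.4 TPM, and SPRY4 changed by 1.39 ± 0.19. DUSP6 replicates were close and its groups far apart (2.71 ± 0.2, limma, adjusted p = 0.000607). AREG, a ligand of the EGF receptor, fell from 93.1 and 117 to 26.1 and 31.1 TPM, though without any 1 library it lost its call (up to 0.115 in limma). Of 14 immediate early and AP-1 genes 3 were higher and 2 lower: FOS rose from 1.79 and 3.26 to 12.1 and 9.96 TPM where FOSL1 fell.

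On the list of TGF-beta and BMP targets 4 of 19 were higher and 5 lower, but with 1 library left out none stayed higher and 0 to 2 stayed lower. ID2, an inhibitor of basic helix-loop-helix factors, went from 101 and 121 to 33.6 and 12.96 TPM, and its oncosphere replicates differed by more than its normal-culture replicates. In Notch signalling JAG1, a ligand, fell from 76.8 and 72.7 to 32.03 and 30.3 TPM, and among Wnt genes the antagonist SFRP1 fell from 59.01 and 64.4 to 15.5 and 19.4 TPM. Both groups of libraries were apart in these 2 genes (limma, adjusted p = 0.00359 and 0.00228). Of 18 nuclear receptor targets 3 rose and none fell, RARRES1 among them. STRA6, a vitamin A transporter, rose from 2.31 and 1.91 to 19.2 and 18.8 TPM and TSC22D3, a glucocorticoid-induced leucine zipper protein, from 5.88 and 4.91 to 59.2 and 80.5 TPM, while FKBP5 and PER1, also glucocorticoid targets, did not pass the test (-0.29 ± 0.16 and -0.19 ± 0.2).

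Of 24 genes of lysosomes and autophagy 5 were higher and none lower, 10 were higher with median centring, and 0 to 5 with 1 library left out. CTSD, the protease cathepsin D, stood at 363 and 348 TPM in normal culture and 700.4 and 861 TPM in oncosphere culture. Among 10 mRNA decay factors, the class to which Regnase-1 belongs, 3 were higher and 1 lower, with 1 to 3 higher and none lower when 1 library was left out. The lower gene was N4BP1, a ribonuclease, with -0.48 ± 0.12, and its call ended with median centring and without the mitochondrial genes too. ZFP36L2, which binds AU-rich elements, rose from 28.7 and 29.5 to 57.1 and 89.8 TPM, and its relative ZFP36L1 changed by -0.12 ± 0.15 and did not pass the test. The call of ZFP36L2 ended in 1 of the 4 cases (limma, adjusted p = 0.0543).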
